A study of Homo sapiens with 6 samples.

Results

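The basic helix-loop-helix (bHLH) genes NEUROG1, NEUROG2, NEUROG3, NEUROD1, NEUROD2, NEUROD4, OLIG1, OLIG2 and ATOH1 were described by their ATAC-seq peaks in human neural progenitor cells (NPCs). They are 9 of the 20033 protein-coding genes of GENCODE version 44 on the genome build hg38, and were chosen by name as proneural and glial bHLH genes. A peak was assigned to a gene if it overlapped by at least 1 bp the window of 3 kb on each side of the gene start (the promoter window), the gene body, or the 50 kb on either side of the gene. By this rule the loci of the 9 genes held 26 of the 50267 peaks of the 3 peak lists analysed.

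ATAC-seq inserts sequencing adapters into open chromatin with the transposase Tn5, and the number of fragments over a site measures its accessibility. All cells were NPCs derived from the human embryonic stem cell line H1. WT NPCs carried no knockout. dKO NPCs were made from H1 cells in which the catalytic domains of UTX (KDM6A) and JMJD3 (KDM6B), demethylases that remove a repressive mark from histone H3, had been deleted in turn with Cas9 and a donor that carried a puromycin cassette, and clones were picked after drug selection. WT and dKO NPCs were taken at an early passage. The third group, dKO + BAF53B, carried the same knockout and received BAF53B, a subunit that the BAF chromatin remodelling complex gains in neurons, from a lentivirus, so it differed from WT in both respects and has no WT + BAF53B counterpart here. Its labels give it as NPCs without a passage, while the study also describes such cells after differentiation, so that its stage rests on the labels. Each group had 2 replicates, and 1 peak list per group pooled over both was analysed, so that no value has a replicate error and no test was possible. The comparisons therefore describe 3 pooled lists, and a difference between clones cannot be told apart from the knockout.

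bHLH transcription factors pair through their helix-loop-helix domains and bind the E-box, a short DNA element written CANNTG. The proneural factors (neurogenins, NEUROD and ATOH factors) pair with the broadly expressed E proteins and drive progenitors to leave the cycle and become neurons, with neurogenins acting early and NEUROD factors later in the same cascade. ID proteins take up E proteins without binding DNA, and most HES and HEY factors, as targets of Notch signalling, repress the proneural genes and so keep progenitors undifferentiated. OLIG1 and OLIG2 specify motor neurons and oligodendrocytes.

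The sequences below are promoters and peaks of these genes, written 5′ to 3′ on the strand of the named gene in hg38. RefSeq promoters (GRCh38.p14, 250 bases before to 50 after the start) matched 7 of the 9 genes, all but OLIG1 and OLIG2. NEUROD4, at chr12:55019724-55020023 on the plus strand, is the one promoter with a peak in all 3 lists, and NEUROD1, at chr2:181680468-181680767 on the minus strand, lies whole inside a peak of the dKO + BAF53B list. The next 2 sequences are whole promoter-window peaks. They are the dKO + BAF53B peak of NEUROG2 at chr4:112516498-112516763 on the minus strand and the dKO peak of NEUROG3 at chr10:69574732-69574941 on the minus strand. In these 4 sequences the capitals mark CANNTG.
NEUROD4 promoter: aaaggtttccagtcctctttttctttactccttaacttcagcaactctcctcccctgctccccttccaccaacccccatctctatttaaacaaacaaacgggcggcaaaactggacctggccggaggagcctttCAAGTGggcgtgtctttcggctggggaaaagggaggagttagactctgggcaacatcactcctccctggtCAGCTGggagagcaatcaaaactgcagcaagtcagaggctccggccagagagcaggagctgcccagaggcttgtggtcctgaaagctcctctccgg
NEUROD1 promoter: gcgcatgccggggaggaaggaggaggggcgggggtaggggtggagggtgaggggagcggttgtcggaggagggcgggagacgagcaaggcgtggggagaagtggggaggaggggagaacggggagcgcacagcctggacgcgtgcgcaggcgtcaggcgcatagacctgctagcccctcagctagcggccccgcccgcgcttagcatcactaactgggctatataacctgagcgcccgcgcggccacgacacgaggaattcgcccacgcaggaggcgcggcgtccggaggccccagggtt
NEUROG2 promoter peak: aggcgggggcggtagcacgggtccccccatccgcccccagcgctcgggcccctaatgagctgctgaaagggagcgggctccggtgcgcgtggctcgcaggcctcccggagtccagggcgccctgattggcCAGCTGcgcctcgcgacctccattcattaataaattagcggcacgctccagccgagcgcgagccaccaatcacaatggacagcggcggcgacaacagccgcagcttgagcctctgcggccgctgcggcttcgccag
NEUROG3 promoter peak: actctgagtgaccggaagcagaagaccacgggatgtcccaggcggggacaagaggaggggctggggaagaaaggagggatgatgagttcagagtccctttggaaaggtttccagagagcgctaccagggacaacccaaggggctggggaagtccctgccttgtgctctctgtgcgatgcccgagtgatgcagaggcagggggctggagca

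The NEUROD4 promoter held 2 E-boxes, of which one was CAGCTG. The NEUROG2 peak held 1, also CAGCTG, and neither the NEUROD1 promoter nor the NEUROG3 peak held any. Of the 7 RefSeq promoters, 4 held CANNTG on either strand, beside 68.9% of all 27305 RefSeq promoters, and the number per promoter ran from 0 at NEUROG1, NEUROG2 and NEUROD1 to 3 at NEUROD2. CAGCTG was in 2 (NEUROG3 and NEUROD4; 17.7% of all), CAGATG in 1 (NEUROD2; 14.8%) and CACGTG in 0 (7.43%), all 3 of these being forms of CANNTG. These matches are letters found in a window and were not tested as binding sites.

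The next 3 sequences, from distal peaks with high scores, are shown for the elements near their summits. They are the 100 bp on each side of the summit of the dKO peak upstream of NEUROG2, at chr4:112523906-112524106 on the minus strand, the 100 bp on each side of that of a dKO peak near NEUROD2, at chr17:39564291-39564491 on the minus strand, and the whole dKO + BAF53B peak upstream of NEUROD2, at chr17:39621957-39622242 on the minus strand. Capitals mark CANNAGNGG, part of the site of the insulator protein CTCF, in the first and the last, and GTTGCNATG, part of the site of RFX factors, in the middle one. Both were searched on both strands, and a match to the other strand reads as the reverse complement.
NEUROG2 upstream: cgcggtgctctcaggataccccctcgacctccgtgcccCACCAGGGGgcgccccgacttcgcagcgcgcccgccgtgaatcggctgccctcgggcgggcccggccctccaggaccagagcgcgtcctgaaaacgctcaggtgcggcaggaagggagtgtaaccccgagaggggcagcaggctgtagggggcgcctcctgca
NEUROD2 distal: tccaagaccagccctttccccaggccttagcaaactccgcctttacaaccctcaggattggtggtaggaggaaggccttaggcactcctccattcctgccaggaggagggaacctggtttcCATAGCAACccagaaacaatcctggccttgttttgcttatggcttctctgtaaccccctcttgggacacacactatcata
NEUROD2 upstream: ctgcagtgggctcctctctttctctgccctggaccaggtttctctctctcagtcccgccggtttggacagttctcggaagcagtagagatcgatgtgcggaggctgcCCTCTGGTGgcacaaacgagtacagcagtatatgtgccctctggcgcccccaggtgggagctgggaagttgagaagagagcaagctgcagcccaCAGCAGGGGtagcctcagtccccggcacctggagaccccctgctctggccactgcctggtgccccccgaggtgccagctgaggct

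Peaks carry 4 values here. The fold is the ratio, given by the authors, of fragments piled up at a summit to those of the background around it, each raised by 1. The −log10 q is the score of the same excess after adjustment over the list, and is at least 5 in every peak. The pileup and the local background, in fragments, were solved from these scores. Intervals of pileups are exact 95% Poisson intervals and, like those of ratios, cover counting error only. There were 7880 peaks in WT, 25439 in dKO and 16948 in dKO + BAF53B, while the genome background, taken as the depth, was 6.33, 6.81 and 6.78 fragments. The lists thus differed more in length than in depth. A site without a listed peak has no value, and its absence does not show closed chromatin. Of 5 NPC markers, VIM had a promoter peak in all 3 lists, SOX1 in dKO and dKO + BAF53B and SOX2 in dKO, and NES and PAX6 had none. Neither of 2 pluripotency genes and none of 4 genes of other germ layers had one in any list. Of all protein-coding genes 41.3% likewise had none in any list. With so few markers, and 2 NPC markers also without a peak, these counts do not identify the cells.

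A promoter peak was found at 1 of the 9 genes in WT, 2 in dKO and 5 in dKO + BAF53B. Of all protein-coding genes, 28.2% had one in WT, 56.4% in dKO and 45.0% in dKO + BAF53B, so the 9 genes were below the background in both WT and dKO. NEUROD4 had a promoter peak in all 3 lists, as had 26.8% of genes. NEUROG3 had one in dKO alone, as had 12.4%. NEUROG2, NEUROD1, OLIG1 and OLIG2 had one in dKO + BAF53B alone, a pattern held by 377 genes or 1.88%. NEUROG1, NEUROD2 and ATOH1 had none in any list, as had 41.3%. Apart from NEUROD4, these calls had a −log10 q below the median of their list, with OLIG2 near it (8.30, beside 8.69). With peaks of −log10 q of at least 10 the counts were 0, 1 and 1, beside 14.3%, 42.3% and 28.8% of all genes, and with the lists cut to equal length they were 1, 1 and 1, beside 28.2%, 33.3% and 31.1%. NEUROD4 was the only gene called under either setting, so none of the 4 calls made in the dKO + BAF53B list alone remained.

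**Figure D1:**
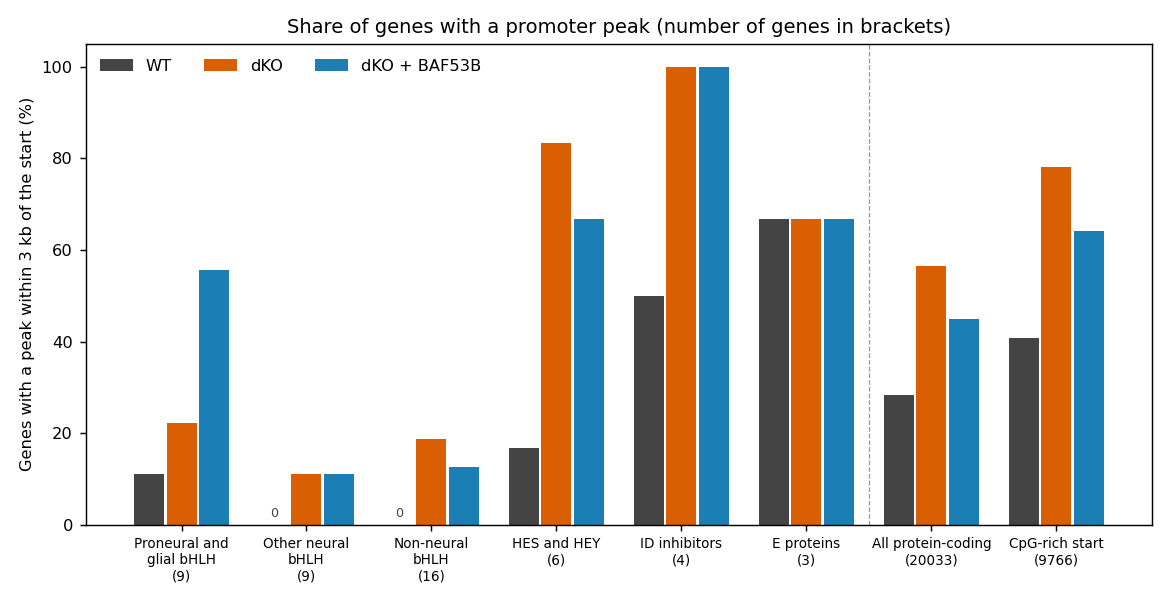
Percent of genes with an ATAC-seq peak within 3 kb of the gene start, in the WT (grey), dKO (orange) and dKO + BAF53B (blue) peak lists, for lists of bHLH genes and their partners and, right of the dashed line, for all protein-coding genes and those with a CpG-rich start. Of the 9 proneural and glial genes 1, 2 and 5 had a peak, and 1 in each list when the lists were cut to equal length. The bars of a list of 3 or 4 genes move in large steps.

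The gene starts were mostly rich in CpG. Within 500 bp on each side of the start, 7 of the 9 genes had at least 55% GC and a ratio of observed to expected CpG of at least 0.65, beside 48.7% of all genes. NEUROG1 was highest, at 68.4% GC and a ratio of 0.89. NEUROD2 (51.5% and 0.12) and NEUROD4 (51.0% and 0.37) fell below the limits, and NEUROD4 was also the only gene with a WT peak. The split depends on the start used. At the start of the main transcript, 1857 bp away in NEUROD2 and 310 bp in NEUROD1, NEUROD2 had 62.1% GC and a ratio of 0.46, NEUROD1 fell below the GC limit at 51.4%, and 6 of the 9 genes passed, beside 56.4% of all genes. Genes with CpG-rich starts had a promoter peak more often than genes at large, at 40.7% in WT, 78.2% in dKO and 64.2% in dKO + BAF53B. A peak in the dKO + BAF53B list alone was found at 1.98% of them, in dKO alone at 14.7% and in none at 19.5%. Of the members, the 7 with CpG-rich starts of the gene record had 0 promoter peaks in WT, 1 in dKO and 4 in dKO + BAF53B.

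Gene bodies were below the background in all 3 lists, and bodies with their flanks in WT and dKO. The 9 genes are 1683 to 12533 bp long, and the background of all genes was not matched for length. A longer gene offers more room for a peak. A peak overlapped the gene body at 1 gene in WT (32.8% of all genes), 1 in dKO (65.2%) and 3 in dKO + BAF53B (53.2%). With 50 kb added on each side the counts were 1 (58.7%), 6 (85.3%) and 7 (77.2%). The mean number of peaks per gene in this wider window was 0.111 in WT, 1.67 in dKO and 1.33 in dKO + BAF53B for the 9 genes, and 1.05, 2.996 and 1.99 for all genes. The 9 genes form 8 separate loci of 884 kb in all, as OLIG1 and OLIG2 are neighbours. These loci held 1, 15 and 10 peaks, or 1.132, 17.0 and 11.3 per Mb, where the whole genome had 2.55, 8.24 and 5.49. Per length the loci were thus below the genome in WT and above it in the other 2 lists, while per gene they were below it in all 3. The genome density covers the full length of the chromosomes and was not matched for gene density. The WT value rests on 1 peak, and the NEUROD2 locus alone held 6 of the 15 dKO and 3 of the 10 dKO + BAF53B peaks.

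**Figure D2:**
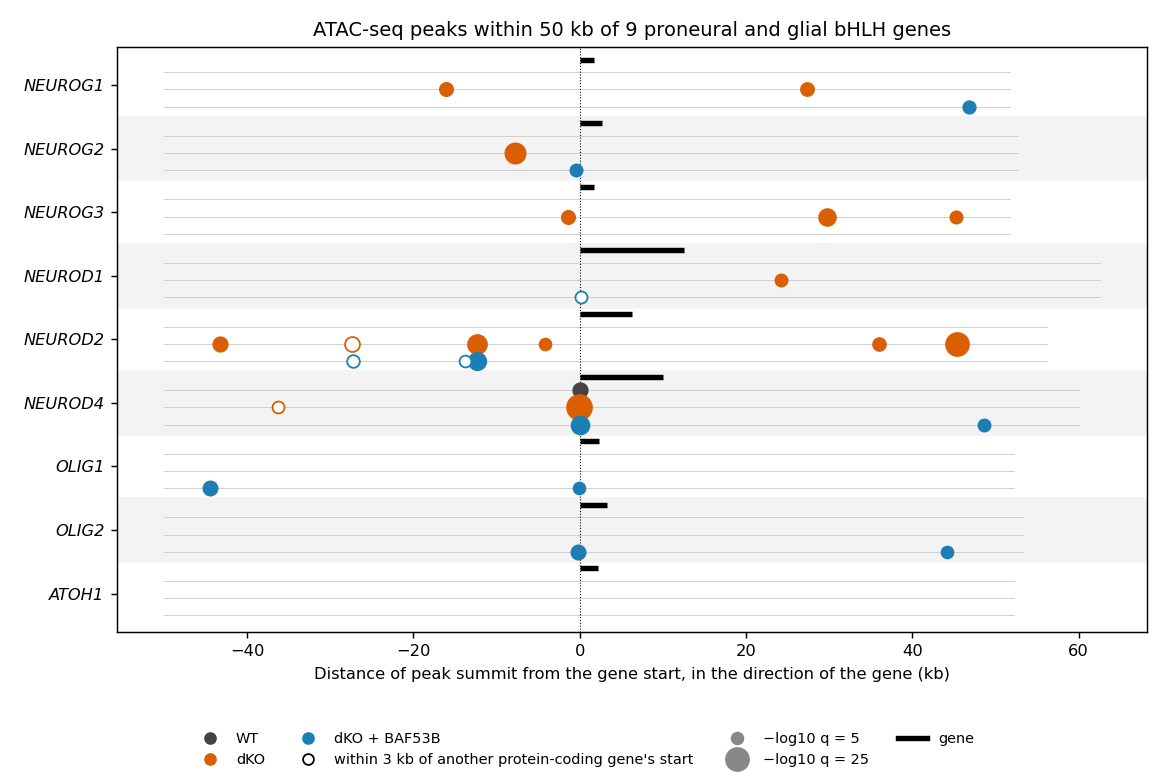
ATAC-seq peaks around the 9 genes by distance of the summit from the gene start in kb, positive in the direction of transcription, with 3 lines per gene for WT, dKO and dKO + BAF53B point area rising with −log10 q and open points for peaks within 3 kb of the start of another protein-coding gene (the peaks of OLIG1 and OLIG2 appear at both genes). Only NEUROD4 has a WT peak, and the dKO + BAF53B list has a peak at the start of 5 genes. The dKO peaks lie mostly in the flanks, which are far wider than the promoter windows.

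Merging overlapping peaks gave 22 regions in the loci. Of these 12 were in dKO alone, 7 in dKO + BAF53B alone, 2 in both and 1 in all 3 lists. Of 32108 regions in the genome 42.8% were in dKO alone, 16.2% in dKO + BAF53B alone, 16.8% in both and 17.9% in all 3. The other genome regions were in WT alone (3.63%), in WT and dKO (1.34%) or in WT and dKO + BAF53B (1.38%). At these genes 3 of 22 regions were shared. The shares were not matched for score, and the peaks of the loci scored low. Their median −log10 q was 6.97 in dKO and 5.72 in dKO + BAF53B, beside 9.20 and 8.69 in the whole lists.

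NEUROD4 (ENSG00000123307.4, chr12:55019974-55030017, plus strand) encodes a factor that acts with neurogenins in neuronal differentiation of the retina and spinal cord. Its start had the strongest promoter peak of the 9 genes in every list. The WT peak (chr12:55019856-55020158) had a summit at 34 bp from the start, over the gene's exon, and a pileup of 33 fragments (22.7 to 46.3) over a local background of 7.16, a fold of 4.17. The dKO peak (chr12:55019757-55020368) had 64 fragments (49.3 to 81.7) over 8.82, a fold of 6.62. The dKO + BAF53B peak (chr12:55019859-55020447) had 42 fragments (30.3 to 56.8) over 7.70, a fold of 4.95. All 3 summits lay within 34 bp of the start, and dKO was the highest of the 3. The −log10 q was 8.71, 29.5 and 14.3, above 53.8%, 87.3% and 75.5% of the peaks of its own list.

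Scaled to the genome background of each list, the NEUROD4 pileup in dKO was 1.80 times that in WT (1.17 to 2.83), a difference beyond counting error. The median of the same ratio over the 6180 regions shared by these lists was 1.62, and NEUROD4 stood at percentile 63.3 among them. In dKO + BAF53B the scaled pileup was 0.660 times that in dKO (0.436 to 0.989), beside a median of 0.777 over 11147 shared regions. Against WT it was 1.19 times (0.736 to 1.94), with an interval that includes no change and a median of 1.18 over 6194 regions. How far replicates would differ at this promoter was not measured. Besides the promoter, dKO had a peak at −36.3 kb (fold 3.34), in an intron of TESPA1 and 1045 bp from its start, and dKO + BAF53B had an intergenic peak at 48.6 kb (fold 3.23).

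**Figure D3:**
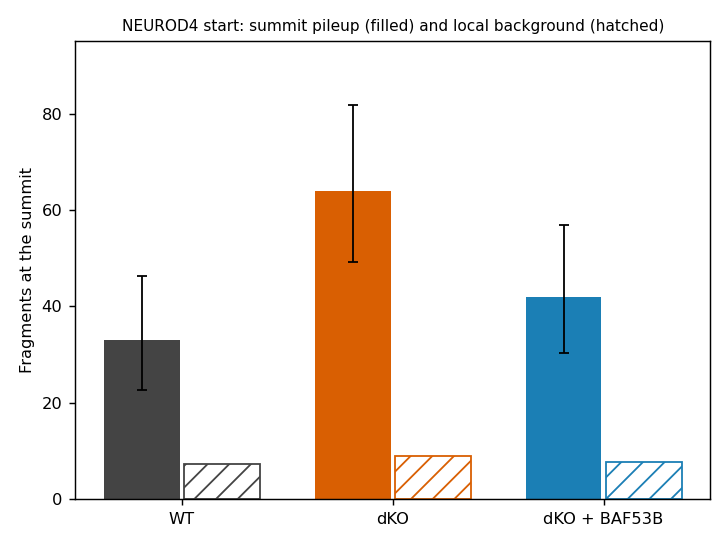
Fragments at the summit of the NEUROD4 promoter peak (filled bars, with exact 95% Poisson intervals) and the local background (hatched bars) in the 3 pooled lists. The dKO pileup of 64 fragments is above 33 in WT and 42 in dKO + BAF53B, while the backgrounds lie between 7.16 and 8.82.

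The neurogenins start the neuronal programme. NEUROG2 (ENSG00000178403.4, chr4:112513516-112516180, minus strand) directs progenitors of the cortex to the glutamatergic fate. Its dKO + BAF53B promoter peak, whose sequence with the single CAGCTG is printed above, had its summit at −452 bp and 32 fragments (21.9 to 45.2) over a background of 9.57. The fold was 3.12 and the −log10 q 5.57, above only 13.6% of the peaks of that list. The dKO list had no peak there. It had a stronger one at −7.83 kb (chr4:112523845-112524332), with 54 fragments (40.6 to 70.5), a fold of 4.98 and a −log10 q of 18.9, above 76.5% of dKO peaks. Both lay in introns of the antisense gene NEUROG2-AS1, they did not overlap, and neither had a counterpart in WT, whose nearest summit was 121 kb away. From genomic views of its signal, the study reports NEUROG1, NEUROG2 and NEUROD1 as open in WT NPCs and less accessible in dKO NPCs. Those signals were not analysed here, and a site without a listed WT peak has no value in these lists.

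NEUROG3 (ENSG00000122859.5, chr10:69571698-69573422, minus strand) is best known as the switch to endocrine cells in the pancreas. All 3 of its peaks were in dKO. The promoter-window peak at −1406 bp, printed above, had 43 fragments (31.1 to 57.9) but the high local background of 14.1, a fold of 2.92 and a −log10 q of 6.97. Its summit was 118 bp from the start of the long non-coding RNA ENSG00000236154, which is nearer than NEUROG3. The strongest peak, at 29.7 kb over an exon of another non-coding RNA (ENSG00000287306), had 48 fragments (35.4 to 63.6) and a −log10 q of 12.3. The last, at 45.2 kb, had a fold of 3.40. The nearest WT and dKO + BAF53B summits were 122 and 56.8 kb from the start.

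NEUROG1 (ENSG00000181965.6, chr5:135534282-135535964, minus strand), which forms the neurons of cranial ganglia, had no promoter peak. It had dKO peaks at −16.0 kb (38 fragments, fold 3.12) and 27.3 kb (33 fragments, fold 3.33), and a dKO + BAF53B peak at 46.8 kb (33 fragments, fold 3.15). All 3 lay in introns of SLC25A48, a mitochondrial carrier gene, with −log10 q between 5.86 and 6.93, below the median of their lists. The nearest WT summit was 597 kb from the start.

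The NEUROD genes act as neurons mature. NEUROD1 (ENSG00000162992.5, chr2:181668295-181680827, minus strand) had a promoter peak in dKO + BAF53B alone (chr2:181680352-181680820), with 33 fragments (22.7 to 46.3) over 10.2, a fold of 3.03 and a −log10 q of 5.44, above 11.5% of its list. The summit was 187 bp inside the gene record and at −123 bp from the start of the main transcript. CERKL, a gene of photoreceptor survival, has a start 25 bp from the same summit, so the peak cannot be assigned to one of the genes. The dKO list had a peak at 24.2 kb (31 fragments, fold 3.09), in an intron of CERKL and 411 bp from the start of one of its transcripts. The nearest WT summit lay 130 kb away.

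NEUROD2 (ENSG00000171532.5, chr17:39603536-39609777, minus strand), a factor of cortical neurons and their synapses, had the most peaks of the 9 genes, with 6 in dKO and 3 in dKO + BAF53B, but none in its promoter window or body. The strongest dKO peak, at 45.4 kb in an intron of CDK12, a kinase of transcription elongation, had 67 fragments (51.9 to 85.1), a fold of 5.29 and a −log10 q of 24.9, and is the one printed with GTTGCNATG. The peak at −12.3 kb was in both lists, with 69 fragments (53.7 to 87.3) and a fold of 3.64 in dKO and 50 fragments (37.1 to 65.9) and a fold of 4.11 in dKO + BAF53B. It lay over an exon of the non-coding RNA ENSG00000214546 and 4614 bp from the start of PPP1R1B, which encodes the dopamine signalling protein DARPP-32.

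The measure set the order of the lists at −12.3 kb. The scaled pileup in dKO + BAF53B was 0.728 times that in dKO (0.496 to 1.06, an interval that includes no change), whereas the fold was higher with BAF53B by 0.18 on the log2 scale. The local background that enters the fold was 18.2 fragments in dKO and 11.4 in dKO + BAF53B. The peak at −27.3 kb in dKO (51 fragments) and −27.2 kb in dKO + BAF53B (37 fragments) sat at the start of STARD3, a cholesterol transporter, and its ratio of 0.729 (0.464 to 1.14) also included no change. The other dKO peaks, at 35.96, −4.15 and −43.3 kb, had folds of 2.92, 2.64 and 3.23, the last of them 17 bp from the start of a STARD3 transcript. The other dKO + BAF53B peak, at −13.8 kb, had a fold of 2.91 and reached within 3 kb of the start of PPP1R1B. The nearest peak to NEUROD2 itself was thus 4.15 kb upstream in dKO, 12.3 kb in dKO + BAF53B and 78.1 kb in WT.

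The oligodendrocyte genes had peaks only in the dKO + BAF53B list. OLIG2 (ENSG00000205927.5, chr21:33025935-33029196, plus strand) specifies motor neuron and oligodendrocyte progenitors. Its peak (chr21:33025571-33025873) had a summit at −203 bp, 39 fragments (27.7 to 53.3) over 10.5, a fold of 3.49 and a −log10 q of 8.30, above 46.8% of its list. OLIG1 (ENSG00000184221.13, chr21:33070141-33072413, plus strand), which acts later in oligodendrocyte maturation, had a summit at −68 bp (chr21:33069965-33070658) with 33 fragments (22.7 to 46.3) over 10.5, a fold of 2.95 and a −log10 q of 5.17, above 3.53% of its list. Both lay within an intron of the non-coding RNA ENSG00000227757, and no other peak lay between them or in the 50 kb around them in any list. The nearest WT and dKO summits were both 57.3 kb from OLIG1.

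Of the 4 promoters called in dKO + BAF53B alone, OLIG2 had the highest score. The −log10 p was 11.6 at OLIG2, 8.58 at NEUROG2, 8.44 at NEUROD1 and 8.14 at OLIG1, where the lowest listed value was 8.36 in WT, 7.71 in dKO and 7.96 in dKO + BAF53B. Taken as they stand, the OLIG1 value is under the lowest WT value and the other 3 are above the lowest value of every list. The values were not scaled to depth, which was lower in WT (6.33 fragments) than in dKO + BAF53B (6.78). Whether these peaks would be listed at the depth of WT was therefore not tested. Whether a signal just below the threshold was present in WT or dKO was not measured.

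**Figure D4:**
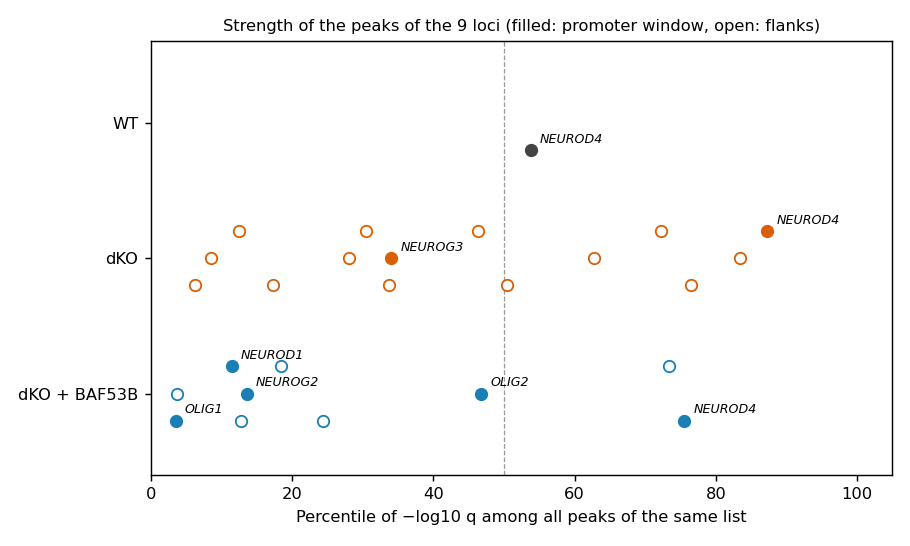
Strength of each peak of the loci as the percentile of its −log10 q among all peaks of the same list, with promoter-window peaks filled and named and flanking peaks open (vertical position within a list is spread for legibility). Of the promoter peaks only those of NEUROD4 lie right of the list median (dashed line).

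ATOH1 (ENSG00000172238.6, chr4:93828753-93830964, plus strand), the proneural gene of cerebellar granule cells and inner ear hair cells, had no peak in its promoter window, body or flanks in any list. Its nearest summit was 118 kb away in dKO, 240 kb in dKO + BAF53B and 1353 kb in WT. It was the only one of the 9 genes with no peak within 50 kb.

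Taken over the loci, the peaks were mostly weak. The median −log10 q was 6.97 over the 15 dKO peaks and 5.72 over the 10 dKO + BAF53B peaks, where the whole lists had 9.20 and 8.69. The dKO pileups ran from 26 to 69 fragments and those of dKO + BAF53B from 30 to 50. A −log10 q of at least 10 was reached by 5 dKO peaks (45.8% of the whole list), at NEUROD4, NEUROG2, NEUROG3 and 2 sites of NEUROD2, by 2 dKO + BAF53B peaks (41.6%), at NEUROD4 and NEUROD2, and by the WT peak not at all (37.8%). Of the 5 dKO peaks with these scores, 4 lay outside the promoter window. The flanks, of 50 kb on each side, are far wider than this window, and no share of all dKO peaks is set beside the count.

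E-boxes lay within 100 bp of 12 of the 15 dKO summits and 4 of the 10 dKO + BAF53B summits, beside 57.5% and 54.6% of all summits of these lists, and of the WT summit at NEUROD4 (51.1%). CAGCTG was at 3 of 15 (15.5% of the list), 2 of 10 (13.5%) and the WT summit (11.8%). CAGATG was at 1 dKO summit, that of NEUROD2 at 35.96 kb (10.4%), and at none in dKO + BAF53B (9.84%) or WT (8.24%). CACGTG was at none (5.15%, 5.53% and 6.93% of dKO, dKO + BAF53B and WT summits). GTTGCNATG was at 2 dKO summits, both near NEUROD2 (45.4 and −43.3 kb; 1.47% of the list), and at none in dKO + BAF53B (1.83%). CANNAGNGG was at 6 of 15 dKO (18.8%) and 3 of 10 dKO + BAF53B summits (16.4%), and not at the WT summit (14.5%). The last 2 motifs were chosen after the sequences had been seen. Within 50 bp of the summit CANNAGNGG was at 2 of 15 dKO (10.4%) and 2 of 10 dKO + BAF53B summits (9.28%). GTTGCNATG was then at 1 dKO summit (0.884%). With so few summits these counts are a description.

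Promoter peaks were counted in the same way at the partners and inhibitors of these factors. The E proteins TCF3 and TCF12, the general partners of proneural factors, had promoter peaks in all 3 lists, with folds of 4.29, 7.12 and 4.95 at TCF3 and 3.92, 5.61 and 4.65 at TCF12 in WT, dKO and dKO + BAF53B, and TCF4 had none. Of the 4 ID genes 2 had one in WT and all 4 in dKO and dKO + BAF53B. ID4 had folds of 3.65, 5.98 and 4.19 and ID1 of 2.63, 4.97 and 4.00, while ID3 (5.17 and 4.14) and ID2 (4.78 and 4.80) lacked a WT peak. Of the 6 HES and HEY genes 1 had a peak in WT, 5 in dKO and 4 in dKO + BAF53B. HES1 had folds of 3.03, 4.69 and 4.05, and HEY2 (4.06 and 4.81), HEY1 (3.58 and 4.68) and HES6 (3.52 and 4.02) had peaks in dKO and dKO + BAF53B. HES6 differs from the others in that it counters HES1 and favours neuronal differentiation. CpG-rich starts were found at 2 of the 3 E proteins, all 4 ID genes and 4 of the 6 HES and HEY genes. Among genes with such starts, the share called at the promoter was 40.7% for WT, 78.2% for dKO and 64.2% for dKO + BAF53B. Among all protein-coding genes, the background for the remaining members, it was 28.2%, 56.4% and 45.0% in the same order. With only 3 to 6 genes each, these sets are too small for their counts to set any peak list apart.

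Other bHLH genes of lineage choice were called at few promoters, where 28.2%, 56.4% and 45.0% of all genes were called in WT, dKO and dKO + BAF53B. Of 9 other neural bHLH genes 0, 1 and 1 were called in WT, dKO and dKO + BAF53B, the one gene being ATOH7, a retinal ganglion cell factor (5.13 in dKO and 4.38 in dKO + BAF53B). Of 16 bHLH genes of muscle, blood and mesoderm 0, 3 and 2 had one, which were MESP1 (3.12 and 4.21), TCF21 (3.36 in dKO), TWIST1 (3.05 in dKO) and MESP2 (3.55 in dKO + BAF53B).

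Downstream of the proneural factors, promoter peaks were found at 0 of 11 target and neuronal genes in WT, 4 in dKO and 3 in dKO + BAF53B. RND2, a regulator of neuronal migration (4.32 and 4.49), and the Notch ligand DLL3 (3.67 and 3.23) had one in both knockout lists, and TBR1 (3.08) and EOMES (2.89), factors of the cortical glutamatergic lineage, in dKO alone. Of 9 oligodendrocyte lineage genes 1, 3 and 0 had one. Both sets were below the shares of all genes, which were 28.2% in WT, 56.4% in dKO and 45.0% in dKO + BAF53B. The growth factor receptor gene PDGFRA had a fold of 3.15 in WT and 2.69 in dKO, and CSPG4 (5.35) and CNP (3.63) had a peak in dKO alone. The list without these peaks was the one with peaks at OLIG1 and OLIG2. The −log10 q was near the limit of 5 at PDGFRA (5.29 in WT and 5.05 in dKO) and at OLIG1 (5.17 in dKO + BAF53B). It was higher at OLIG2 (8.30 in dKO + BAF53B) and at CSPG4 (17.8) and CNP (13.4) in dKO. A relation between these calls was not tested. Of all the genes of these lists, MESP2 and ELAVL3, an RNA-binding protein of neurons (fold 2.85), shared the pattern of a peak in dKO + BAF53B alone. The pattern of NEUROG3, a peak in dKO alone, was shared by HEYL (fold 3.17), TCF21, TWIST1, TBR1, EOMES, CSPG4, CNP and SOX2, and that of NEUROD4 by TCF3, TCF12, ID1, ID4, HES1 and VIM.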

How the data were processed

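ATAC-seq libraries of WT, dKO and dKO + BAF53B NPCs (3 groups of 2 replicates, 6 samples) were analysed from 3 peak lists, each pooled over a group. Per the study's methods and the submitters' processing notes, adapters were trimmed by the authors (cutadapt 1.13), reads aligned with Bowtie2 2.2.5 to hg38, duplicates removed (SAMtools 1.3.1, Picard 1.90) and peaks called with MACS2. The Tn5 shift and the peak calling options are not given in the sources used here. The deposited fold is a ratio of summit pileup over local background with 1 added to both, the deposited −log10 p rates the same excess, and the deposited −log10 q is that score after adjustment over the list.

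Whole pileups and local backgrounds were solved from the fold and −log10 p, for 100% of peaks to within 0.01. The step recovered 100% of 1954 peaks simulated with the same scoring formula, which checks the computation alone. The lowest background of a list served as its depth. Genes came from GENCODE version 44 and promoter sequences from RefSeq. A gene start was that of the gene record. Ratios of pileups used exact conditional 95% intervals. Motifs were searched on both strands within 100 bp of the summit.

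All 9 genes are named with every peak, and of each other list up to 4 genes with the highest promoter fold and those sharing a member's pattern. The genes and lists were chosen with earlier results of these data known. A further gene of the list of other neural bHLH genes is not reported here and was left out of its counts. Alternatives tried were peaks with −log10 q of at least 10, lists of equal length, the summit inside the window, promoter windows of 1 kb, starts of all transcripts, flanks of 20 kb, peaks over 3 kb from other gene starts, reciprocal overlap of 50% and motif windows of 50 bp. Chosen after seeing the data were 2 motifs, the CpG-rich background and CpG content at the start of the main transcript. Versions were Python 3.11.15, samtools 1.23.1, pysam 0.24.0, scipy 1.17.1, pandas 2.3.3, numpy 2.4.6 and matplotlib 3.10.9.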

Additional observations from a re-analysis of the deposited data

How the results depend on the processing

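With a −log10 q of at least 10, a promoter peak was found at 0 genes in WT, 1 in dKO and 1 in dKO + BAF53B, a gene body peak at 0 in WT and 1 in dKO + BAF53B, a peak within 50 kb at 0 in WT and 2 in dKO + BAF53B, and the loci held 0, 5 and 2 peaks. With lists of equal length, a promoter peak was found at 1 gene in dKO and 1 in dKO + BAF53B, a gene body peak at 1 in dKO + BAF53B, a peak within 50 kb at 3 in dKO and 2 in dKO + BAF53B, and the loci held 4 dKO and 2 dKO + BAF53B peaks. With the summit required inside the window the gene body count in dKO was 0, with a promoter window of 1 kb the dKO promoter count was 1, and with a motif window of 50 bp the WT summit held no CANNTG (0). The counts stayed within 1.5 times under the starts of all transcripts, flanks of 20 kb, the removal of peaks near other gene starts and reciprocal overlap. Most promoter calls thus depend on the threshold and the list length. No paired analysis was possible because the 2 replicates of a group were pooled into 1 list without replicate numbers, and for the same reason the settings without 1 replicate were not run.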
